A study of Mus musculus with 2 samples.

Results

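*Apoe* and 8 genes of lipid efflux and uptake (*Lpl*, *Abca1*, *Abcg1*, *Ch25h*, *Fabp5*, *Soat1*, *Nr1h3* and *Plin2*) were read by gene symbol from a table of 32285 genes in 42766 sorted mouse brain cells, and all 9 were found in it. They were described in the library of vehicle-treated mice (VEH), in the library of lemborexant-treated mice (LEM), and in cell states gated on marker counts that none of the 9 contributes to. Lemborexant is a dual orexin receptor antagonist prescribed for insomnia. All mice, controls included, were PSAPP (genotype APPswe/PS1.delta.E9), a transgenic amyloid model in which plaques form with age. Lemborexant was gavaged daily at 30 mg/kg and the controls got its vehicle, in both cases for 30 days between 9 and 10 months of age. CD45loCD11b+ live cells of cortex and hippocampus were sorted, and the cells of 5 mice per treatment were pooled into 1 droplet library of 5′ transcript ends. The labels do not tie cells to mice. With 1 library per treatment, no test of the treatment was possible. All intervals are 95% intervals that cover counting error only, and a difference between VEH and LEM is a difference between 2 pools of mice.

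Apolipoprotein E is the main apolipoprotein of the brain, the protein of the particles that carry cholesterol and phospholipid between cells. The membrane transporters ABCA1 and ABCG1 load it with lipid, lipoprotein lipase (*Lpl*) releases fatty acids from lipoproteins, FABP5 carries fatty acids inside the cell, and sterol O-acyltransferase 1 (*Soat1*) and perilipin 2 (*Plin2*) act in the storage of neutral lipid in droplets. Cholesterol 25-hydroxylase (*Ch25h*) makes an oxysterol, and oxysterols are ligands of the liver X receptors, of which *Nr1h3* encodes LXRα; *Apoe*, *Abca1* and *Abcg1* are known LXR targets. Disease-associated microglia (DAM), which gather at plaques, are known for high *Apoe* and *Lpl*.

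Sequence upstream of the start of transcription was at hand for 6 of the 9 genes (RefSeq, GRCm38.p6): *Apoe*, *Abca1*, *Ch25h*, *Soat1*, *Nr1h3* and *Plin2*. The 250 bases before the start are given for 3 genes that differ in how DAM-gated and homeostatic-gated cells compare, with *Apoe* and *Ch25h* higher and *Abca1* lower in the former: *Apoe* (chr7:19699189-19699438, minus strand), *Abca1* (chr4:53159896-53160145, minus strand) and *Ch25h* (chr19:34475149-34475398, minus strand). Where a gene had several starts, the one nearest to the annotated gene start was taken. Capitals mark matches to any of 5 motifs searched on both strands: the half-site bound by many nuclear receptors (AGGTCA), the LXR element of *Abca1* with its paired half-sites and free spacer letters, the E-box with the letters CACGTG, the box named after its letters TATAAA, and the cyclic AMP response element with the letters TGACGTCA. No match overlapped another.
Apoe: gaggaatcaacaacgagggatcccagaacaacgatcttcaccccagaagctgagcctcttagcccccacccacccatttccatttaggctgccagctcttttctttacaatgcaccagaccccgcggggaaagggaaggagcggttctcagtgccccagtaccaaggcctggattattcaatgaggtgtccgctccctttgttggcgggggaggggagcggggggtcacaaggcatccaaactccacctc
Abca1: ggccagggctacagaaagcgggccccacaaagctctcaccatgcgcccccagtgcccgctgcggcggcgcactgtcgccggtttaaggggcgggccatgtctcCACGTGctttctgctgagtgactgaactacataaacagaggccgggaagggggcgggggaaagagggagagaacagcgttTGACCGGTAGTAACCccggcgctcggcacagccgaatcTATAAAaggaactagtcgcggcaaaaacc
Ch25h: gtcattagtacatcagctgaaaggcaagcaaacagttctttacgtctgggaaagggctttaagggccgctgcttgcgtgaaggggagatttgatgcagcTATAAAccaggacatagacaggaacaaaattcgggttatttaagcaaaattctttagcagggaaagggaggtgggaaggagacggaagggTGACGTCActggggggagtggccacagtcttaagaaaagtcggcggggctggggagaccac

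In *Abca1* the paired half-site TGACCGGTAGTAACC began 67 bases before the start, an E-box 147 bases and a TATA box 29 bases before it. This spelling of the *Abca1* LXR element was present in 12 of 32851 such windows (0.0365%), E-boxes in 6.02% and TATA boxes in 12.4%. The match in *Abca1* was fixed in advance by that spelling, and other spellings of paired LXR elements were not searched. *Ch25h* held TGACGTCA 61 bases before the start, a match found in 1.55% of windows, and TATAAA 151 bases before it. *Plin2* (chr4:86670060-86670309, minus strand) held 1 AGGTCA match on the opposite strand, 218 bases before the start, where 14.0% of windows hold one. No motif of the 5 was found in the windows of *Apoe*, *Soat1* and *Nr1h3*, the last of which begins 7718 bases from the annotated gene start. These are matches of letters, chosen with the sequences and results in view, and not sites of binding.

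The VEH library held 18374 cells and 116229678 counts (median 5971 per cell), and the LEM library 24392 cells and 160752298 counts (median 6034). Microglial markers, *Ctss*, *C1qa*, *C1qb*, *Cx3cr1* and *P2ry12* among them, were each detected in 98.4% to 99.9% of cells, and the 6 neuronal markers summed to 0.731 and 0.523 counts per 1000000 counts (CPM). The 5 astrocyte markers summed to 3.14 CPM in VEH and 3.83 CPM in LEM, and the 8 lymphoid and neutrophil markers to 0.310 and 0.429 CPM, with *Cd3e* at 0 in both. Among 5 oligodendrocyte markers, which summed to 57.8 and 61.7 CPM, *Mbp* was highest, and *Olig2* was at 0 in VEH and at 0.0187 CPM in LEM. Endothelial markers (3 genes) summed to 13.2 and 10.1 CPM, mostly *Pecam1*, with *Cldn5* at 0 in VEH. Choroid plexus-gated cells (50 and 147) and border-associated macrophage-gated cells (16 and 62) were the other cells found, both at a higher share in LEM. Cells with *Xist* counts alone were called female and those with Y-linked counts alone male, which made 38.7% of the sexed cells female in VEH and 42.8% in LEM. The sexes thus form separate sub-pools of mice in each library.

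*Apoe* was the only one of the 9 genes that lay at least 0.32 apart between the libraries on the log2 scale. Of the 11910 genes found in 1% of the cells of VEH or of LEM, 6.85% lay that far apart (3.98% higher and 2.87% lower in LEM), and of the genes found in 10% of cells, 2.6%. *Apoe* was also the only one of the 9 to do so in the same direction in female and in male cells, as 3.01% of all genes tested did. Its summed counts came to 1425 CPM in VEH (1418 to 1432) and 2151 CPM in LEM (2144 to 2158), a log2 ratio of LEM over VEH of 0.59 (0.59 to 0.60). Of the 9 genes 7 passed the 1% detection; *Ch25h* (0.762% and 0.771% of cells) and *Nr1h3* (0.811% and 0.881%) did not. The median log2 ratio was 0.03 over the 9 genes and 0.01 over all genes tested. The intervals of *Lpl*, *Abcg1*, *Ch25h*, *Fabp5*, *Nr1h3* and *Plin2* held 0.

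**Figure D1:**
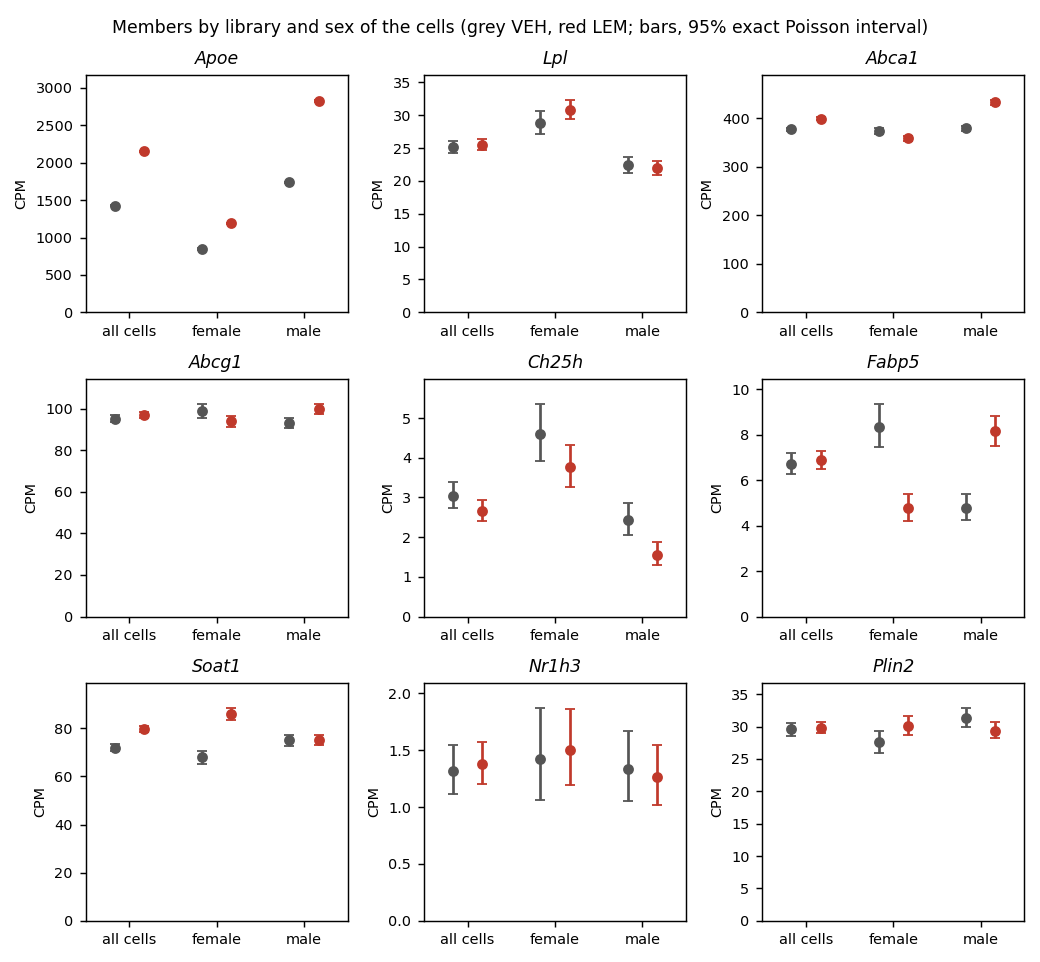
CPM of each gene (vertical axes, from 0) in all cells, female cells and male cells of the VEH (grey) and LEM (red) libraries, with 95% exact Poisson intervals. *Apoe* is higher in LEM in both sexes and lower in female than in male cells, and the order of VEH and LEM for *Fabp5* differs between the sexes.

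*Apoe* also differed by sex. Female cells held 845 CPM in VEH and 1190 CPM in LEM, and male cells 1737 CPM in VEH and 2827 CPM in LEM. All 4 values are separated by more than their counting error, and male VEH cells lay above female LEM cells. LEM over VEH came to a log2 ratio of 0.49 in female and 0.70 in male cells, whereas female over male came to -1.04 in VEH and -1.25 in LEM.

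The transporters lay closer. *Abca1* stood at 377 CPM in VEH and 399 CPM in LEM (log2 ratio 0.08, 0.06 to 0.10), but at -0.059 in female cells (374 and 359 CPM) and 0.19 in male cells (379 and 433 CPM). *Abcg1*, which moves cholesterol to lipoprotein particles, had 95.2 and 96.9 CPM (0.03, -0.01 to 0.06). Its values by sex went opposite ways too, -0.075 in female and 0.10 in male cells, so both transporters were slightly higher in LEM in male cells and slightly lower in female cells. Across all genes tested, 45.9% had opposite signs in the sexes.

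Among the genes of uptake and storage, *Lpl* lay at 25.1 CPM in VEH and 25.5 CPM in LEM with all states pooled (0.02, -0.05 to 0.09). It was higher in female than in male cells in both libraries (28.8 against 22.4 CPM in VEH, 30.8 against 21.9 CPM in LEM). *Plin2* lay at 29.6 and 29.8 CPM (0.01, -0.05 to 0.08). *Soat1*, which esterifies cholesterol, lay at 71.9 and 79.6 CPM (0.15, 0.11 to 0.19). The *Soat1* ratio was 0.34 in female cells (68.0 and 85.8 CPM) and 0.00 in male cells (-0.05 to 0.06). Whether the sexes differ was not tested.

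*Fabp5* lay level in the pooled cells, 6.73 and 6.88 CPM (0.03, -0.10 to 0.17), but not by sex. Female cells went from 8.35 CPM in VEH to 4.78 CPM in LEM (-0.80, -1.05 to -0.56) and male cells from 4.79 to 8.15 CPM (0.77, 0.56 to 0.98). Counts of this gene gather in few cells, which the intervals do not cover: the 10 VEH female cells with most counts held 51.1% of all counts of *Fabp5* in such cells. Without the 10 highest cells of each sex and library, the log2 ratio was -0.24 in female cells and 0.88 in male cells. A fixed 10 cells is a larger share of VEH, which has fewer cells, and can raise such a LEM over VEH ratio by itself. A processed pseudogene of *Fabp5* is annotated in GENCODE M21, so the assignment of its reads is uncertain.

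*Ch25h* was sparse, with 354 counts in VEH and 428 in LEM, or 3.05 and 2.66 CPM (-0.19, -0.40 to 0.01). The 10 highest cells held 41.0% of its counts in VEH and 30.4% in LEM, and without the 10 highest cells of each sex and library the log2 ratio was 0.21, so no direction was read from it. Female cells were higher than male cells in both libraries (4.60 against 2.43 CPM in VEH, 3.77 against 1.56 CPM in LEM). *Nr1h3* had 153 and 222 counts, 1.32 and 1.38 CPM (0.07, -0.23 to 0.38), so a difference within that interval was not detectable at this depth. *Gm26902* overlaps *Ch25h* on the opposite strand (56 counts in all cells) and *Gm13783* overlaps *Nr1h3* on the same strand (18 counts).

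Between female and male cells, 4 of the 9 genes lay at least 0.32 apart on the log2 scale in VEH, where 11.4% of all genes tested did, and 4 of 9 in LEM, where 8.96% did. *Apoe* (lower in female cells), *Lpl* and *Ch25h* (higher in female cells) did so in the same direction in both libraries, as did 2.49% of all genes tested. *Ch25h*, which is in each of these counts, did not pass the 1% detection that all genes tested did. Its 10 highest cells held 58.3% of its counts in female and 64.8% in male cells of VEH, and 42.8% and 47.8% in LEM.

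The cell states separated the 9 genes far more than the libraries did. DAM-gated cells held counts of at least 3 of *Cst7*, *Itgax*, *Spp1*, *Gpnmb* and *Csf1* and made up 452 cells in VEH (2.46%) and 626 in LEM (2.57%). Homeostatic-gated cells held *P2ry12* and *Tmem119* and none of those 5 markers (11984 and 14689 cells), and cells with 1 or 2 of the markers were called intermediate (2439 and 4135). The other states were cells with at least 3 interferon-response genes, cells with at least 3 cell cycle genes, and cells with at least 10 counts of *Ccl3* and *Ccl4*. DAM-gated cells were deeper, with medians of 11353 and 11792 counts against 5597 and 5662 in homeostatic-gated cells. The ratios are also given for cells of 8000 to under 14000 counts, a range chosen after the data were seen.

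The genes *Apoe*, *Lpl*, *Ch25h*, *Fabp5* and *Plin2* were at least 2-fold higher in DAM-gated than in homeostatic-gated cells in both libraries (5 of 9), and 0 of 9 were at least 2-fold lower. Of the 7 that passed the 1% detection, as all genes tested did, the number was 4, since *Ch25h* did not pass. Of all genes tested, 3.17% were that much higher in both and 4.08% that much lower, 7.25% in either direction, and 69.6% were lower in both by any amount, as were *Abca1* and *Abcg1*. The median log2 ratio over all genes tested was -0.30 in VEH and -0.31 in LEM, and over the 9 genes 1.28 and 1.35. Within the range of 8000 to under 14000 counts the number was again 5 of 9, against 3.09% of all genes tested. Without the 10 cells with most counts of the gene in each sex class (female, male, both or neither by marker counts) and library it was 4 of 9 (*Plin2* at 0.98 in VEH and 1.13 in LEM), against 2.63%.

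*Apoe* went from 920 CPM in homeostatic-gated to 6474 CPM in DAM-gated cells in VEH, 7.04-fold (6.94 to 7.13), and from 1567 to 6579 CPM in LEM, 4.20-fold (4.15 to 4.24). With the sexes pooled, homeostatic-gated cells of the 2 libraries were thus further apart than DAM-gated cells. In cells of 8000 to under 14000 counts the log2 ratio of DAM-gated over homeostatic-gated was 2.59 in VEH and 1.86 in LEM, against 2.82 and 2.07 in all cells. The share of *Apoe* counts that came from DAM-gated cells, which held 4.45% and 4.63% of all counts, was 20.2% in VEH and 14.2% in LEM.

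*Lpl* went from 2.78 CPM in homeostatic-gated to 292 CPM in DAM-gated cells in VEH and from 2.79 to 308 CPM in LEM, 105-fold (90.4 to 123) and 110-fold (96.6 to 126). DAM-gated cells held 51.8% of all *Lpl* counts in VEH and 55.9% in LEM. Cells thinned to 2000 counts, which removes the difference in depth, had *Lpl* in 33.5% and 31.3% of DAM-gated and in 0.479% and 0.457% of homeostatic-gated cells.

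*Fabp5* went from 1.29 to 96.2 CPM in VEH (74.4-fold, 59.2 to 94.3) and from 2.38 to 63.7 CPM in LEM (26.8-fold, 22.7 to 31.7). *Ch25h* was nearly absent from homeostatic-gated cells, with 4 counts in VEH and 14 in LEM against 202 and 253 in DAM-gated cells, which gave 0.0581 and 0.161 CPM against 39.0 and 34.0 CPM. The log2 ratio was 9.39 in VEH (8.01 to 11.28) and 7.72 in LEM (6.95 to 8.62). The droplet coat gene *Plin2* went from 26.2 to 63.7 CPM in VEH (2.43-fold) and from 25.5 to 65.2 CPM in LEM (2.55-fold). The order of these ratios, *Ch25h*, *Lpl*, *Fabp5*, *Apoe* and *Plin2* from the top, was the same in both libraries. In VEH the intervals of *Lpl* and *Fabp5* overlapped, and in LEM those of *Ch25h* and *Lpl*.

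A few cells held much of the DAM-gated counts of *Fabp5* and *Ch25h*. Without the 10 cells with most counts of the gene in each sex class and library, 168 of the 498 *Fabp5* counts of DAM-gated cells were left in VEH and 254 of 474 in LEM. The *Fabp5* level was then 35.4 CPM in VEH and 35.8 CPM in LEM, and the log2 ratio over homeostatic-gated cells 4.77 (4.39 to 5.16) and 3.91 (3.64 to 4.18). The LEM over VEH log2 ratio of *Fabp5* in the pooled DAM-gated cells, -0.59 (-0.78 to -0.41) with every cell, was 0.02 (-0.27 to 0.31) without them. That step left 418 of 452 DAM-gated cells in VEH and 600 of 626 in LEM. A larger share was thus taken from VEH, which can raise this ratio by itself. Of the *Ch25h* counts, 75 of 202 were left in VEH and 110 of 253 in LEM, at 15.3 and 15.4 CPM, with log2 ratios over homeostatic-gated cells of 8.04 (6.62 to 9.95) and 6.69 (5.86 to 7.64). The order of the genes was the same without these cells.

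*Soat1* was higher in DAM-gated cells by less, 116 against 66.8 CPM in VEH (log2 ratio 0.79) and 111 against 74.9 CPM in LEM (0.56). The efflux transporters did not follow *Apoe*. *Abca1* was lower in DAM-gated cells, 221 against 389 CPM in VEH (-0.82, -0.90 to -0.73) and 232 against 413 CPM in LEM (-0.83, -0.90 to -0.76). This was below the median of all genes in both libraries, and it was as large in cells of 8000 to under 14000 counts (-0.82 and -0.88). Because DAM-gated cells are deeper, their mean number of *Abca1* counts per cell was not lower, at 2.53 against 2.23 in VEH and 2.76 against 2.45 in LEM. *Abcg1* differed by -0.26 and -0.08, close to or above the median of all genes, and *Nr1h3* had too few counts in DAM-gated cells (5 and 11) to be placed.

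**Figure D2:**
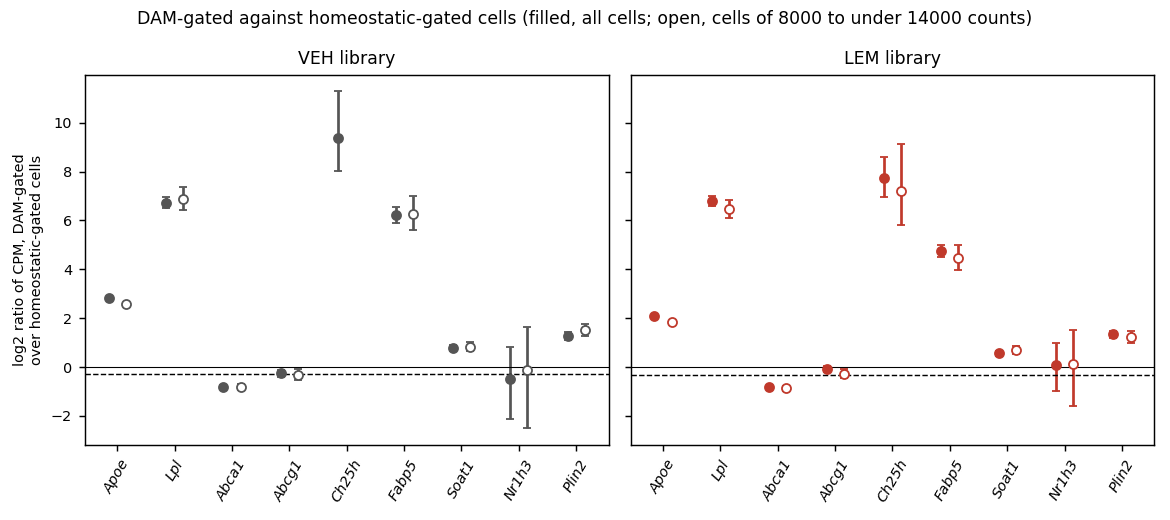
Log2 ratio of CPM, DAM-gated over homeostatic-gated cells, for each gene in the VEH (left) and LEM (right) libraries, for all cells (filled) and for cells of 8000 to under 14000 counts (open), with exact 95% intervals for counting error and the median of all genes tested as a dashed line. *Ch25h*, *Lpl* and *Fabp5* lie highest, *Abca1* lies below the dashed line in both, and the open *Ch25h* point is missing in VEH because homeostatic-gated cells of that depth held 0 counts.

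Sex did not change which genes were at least 2-fold higher in DAM-gated cells in both libraries. They were *Apoe*, *Lpl*, *Ch25h*, *Fabp5* and *Plin2* in female and in male cells alike. In VEH male cells *Ch25h* had 0 counts in homeostatic-gated cells. The share of all genes tested that did so is not given by sex. DAM-gated cells were 35.3% female in VEH and 49.3% in LEM, and the part of that shift in pooled values was not tested. *Apoe* in DAM-gated cells had a log2 ratio of LEM over VEH of 0.02 when pooled, but 5107 and 4399 CPM in female cells (-0.22, -0.26 to -0.17) and 7532 and 8988 CPM in male cells (0.26, 0.23 to 0.28). In homeostatic-gated cells it was higher in LEM in both sexes, 452 and 735 CPM in female cells (0.70) and 1163 and 2153 CPM in male cells (0.89). *Fabp5* in DAM-gated cells went from 141 to 36.7 CPM in female cells and from 65.0 to 101 CPM in male cells. Without the 10 cells with most counts of the gene in each sex and library, the log2 ratio of LEM over VEH in DAM-gated cells was -1.21 in female (66 and 56 counts left) and 0.75 in male cells for *Fabp5*, and -0.062 and 0.33 for *Apoe*. For *Fabp5* this left 117 of 126 female DAM-gated cells in VEH and 229 of 235 in LEM. The larger share taken from VEH can raise the ratio by itself.

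With the sexes pooled, *Apoe* was higher in LEM than in VEH in each state with at least 50 cells per library, but not in female DAM-gated cells (-0.22). In homeostatic-gated cells the log2 ratio of LEM over VEH was 0.77, in intermediate cells 0.51 (1633 and 2319 CPM), and in interferon-responsive cells 0.61 (1302 and 1981 CPM). It was 0.48 in *Ccl3*/*Ccl4*-high cells (1610 and 2243 CPM) and 1.06 in cycling cells (801 and 1665 CPM). In female and male cells it came to 0.51 and 0.58 (intermediate), 0.54 and 1.19 (interferon-responsive), 0.30 and 0.63 (*Ccl3*/*Ccl4*-high) and 1.17 and 1.04 (cycling). Sexed interferon-responsive cells were 29.9% female in VEH and 50.5% in LEM, and the part of that shift in the pooled 0.61 was not tested. The pooled DAM-gated cells, at 0.02 (0.00 to 0.04), had the ratio nearest to 0, and 0.12 without the 10 cells with most *Apoe* counts in each sex and library. The latter step left 428 of 452 cells in VEH and 612 of 626 in LEM. The larger share taken from VEH can raise the ratio by itself. The difference between the states in this ratio was not tested.

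The order given here pools the sexes and leaves out cells that passed no gate. Among the gated states, *Apoe* in VEH was lowest in cycling and homeostatic-gated cells, then interferon-responsive cells, then *Ccl3*/*Ccl4*-high and intermediate cells, whose intervals overlap (1592 to 1628 and 1614 to 1653), then choroid plexus-gated cells and DAM-gated cells. In LEM the order was homeostatic-gated, cycling, interferon-responsive, *Ccl3*/*Ccl4*-high, intermediate, choroid plexus-gated and DAM-gated. Cycling and interferon-responsive cells did not overlap there. The LEM order did not hold in male cells alone. Their cycling cells lay below homeostatic-gated cells (log2 ratio -0.10, -0.16 to -0.046), whereas this ratio was 0.15 (0.017 to 0.27) for LEM females. Over homeostatic-gated cells, *Ccl3*/*Ccl4*-high cells of LEM males came to 0.58 (0.56 to 0.59) and intermediate cells to 0.48 (0.47 to 0.50). LEM females kept the pooled order of that pair, at 0.78 and 0.87. With the sexes pooled, border-associated macrophage-gated cells stood above all of these states, at 22164 CPM in the 62 LEM cells, and the 16 VEH cells held 3310 counts. These droplets also held the microglial *P2ry12* (2361 and 2057 CPM) and *Tmem119* (983 and 1196 CPM), and 18.75% and 25.8% of them held transcripts of both sexes, against 5.34% and 7.23% of all cells, so mixed droplets are not told apart from single cells here. They gave 1.999% of *Apoe* counts in VEH and 3.38% in LEM, and choroid plexus-gated cells 0.553% and 1.38%. Without both kinds of cell the log2 ratio of LEM over VEH was 0.57.

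**Figure D3:**
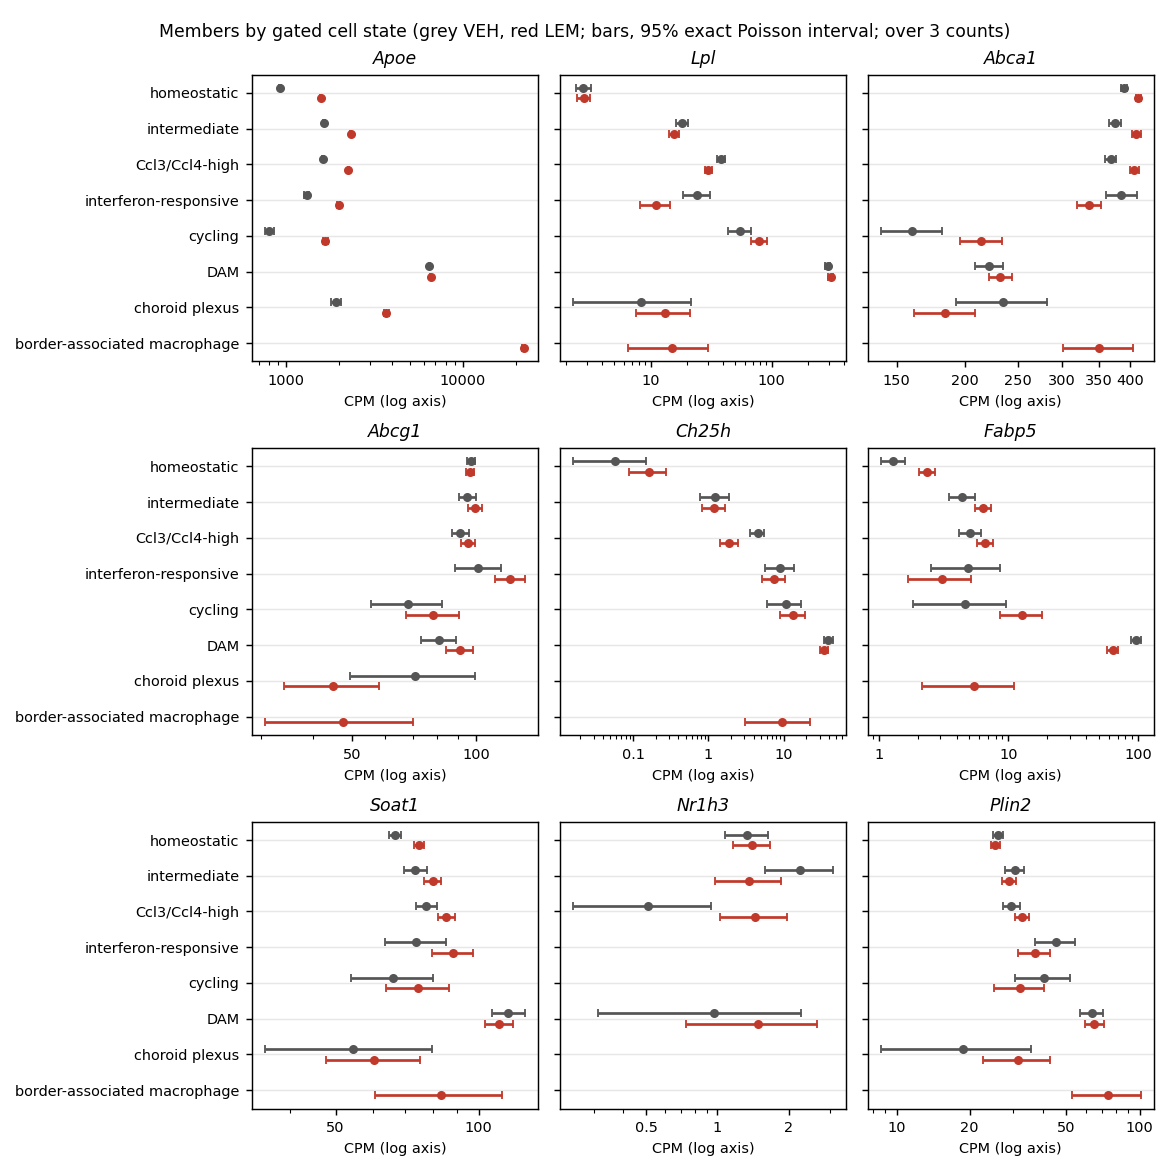
CPM of each gene (horizontal log axes) in each gated state of the VEH (grey) and LEM (red) libraries, with 95% exact Poisson intervals, for states with at least 50 cells and over 3 counts. DAM-gated cells are highest for *Lpl*, *Ch25h*, *Fabp5* and *Soat1*, and border-associated macrophage-gated cells, shown for LEM alone, for *Apoe*.

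*Lpl* was lowest in homeostatic-gated cells and highest in DAM-gated cells in both libraries, with cycling cells next to the highest at 54.8 CPM in VEH and 79.3 CPM in LEM. Its log2 ratio of LEM over VEH was -0.34 (-0.49 to -0.20) in *Ccl3*/*Ccl4*-high and -0.23 (-0.44 to -0.014) in intermediate cells. It was -1.14 (-1.71 to -0.57) in interferon-responsive and 0.53 (0.15 to 0.92) in cycling cells. In homeostatic-gated (0.01) and DAM-gated cells (0.08) the interval held 0. By sex, both intervals excluded 0 in *Ccl3*/*Ccl4*-high and cycling cells alone. *Ch25h*, like *Lpl*, was highest in DAM-gated cells. Cycling cells (10.6 and 13.3 CPM) and interferon-responsive cells (9.03 and 7.48 CPM) followed, with overlapping intervals. In LEM the 62 border-associated macrophage-gated cells (9.48 CPM, 5 counts) lay between them. Cycling cells were gated before DAM-gated cells and so include cells with DAM markers. Their *Cst7* was 120 CPM in VEH and 201 CPM in LEM, against 1710 and 1294 CPM in DAM-gated cells. *Ccl3*/*Ccl4*-high cells gave 24.9% of *Ch25h* counts in VEH and 11.9% in LEM, at 4.49 and 1.89 CPM. *Abca1* was lowest in cycling cells in VEH (160 CPM) and in choroid plexus-gated cells in LEM (184 CPM), where the interval met that of cycling cells. Cells that passed no gate, which were shallow (medians of 1999 and 1820 counts), had the highest *Abca1*, 904 and 759 CPM. Within homeostatic-gated cells *Abca1* went from 470 CPM at 2000 to under 4000 counts to 400 CPM at 12000 to under 20000 counts in VEH, and from 507 to 425 CPM in LEM, with the lowest values between.

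The same genes were followed over cells grouped by how many of the 5 DAM markers were found after thinning to 2000 counts. *Apoe* was higher at each step in VEH, from 1098 CPM with 0 markers (15128 cells) to 2483 with 1, 6019 with 2 and 8591 CPM with 3 or 4 (108 cells). In LEM it went 1835, 3150, 5869 and 8316 CPM, so the pooled values of the libraries lay further apart with 0 or 1 marker than with more. These values pool the sexes, which went opposite ways in DAM-gated cells (-0.22 in female and 0.26 in male cells). *Lpl* went 8.09, 77.1, 243 and 458 CPM in VEH and 8.11, 71.8, 256 and 399 CPM in LEM. As a fold, the first marker thus went with a larger step in *Lpl* than in *Apoe* in both libraries.

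*Abca1* was lower at each step of the same series, 386, 343, 224 and 183 CPM in VEH and 409, 371, 249 and 192 CPM in LEM. *Soat1* went from 68.2 to 120 CPM and from 77.2 to 117 CPM, and *Plin2* from 27.2 to 84.5 CPM and from 27.7 to 85.4 CPM. *Abcg1* had no common direction, ending at 91.3 CPM in VEH and 78.1 CPM in LEM with overlapping intervals. *Ch25h* ended at 42.3 CPM in VEH and 71.8 CPM in LEM, and *Fabp5* at 182 and 137 CPM. Fewer cells hold the last groups (108 and 154), and their median depth was 11135 and 11163 counts against 6102 and 6095 with 0 markers.

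**Figure D4:**
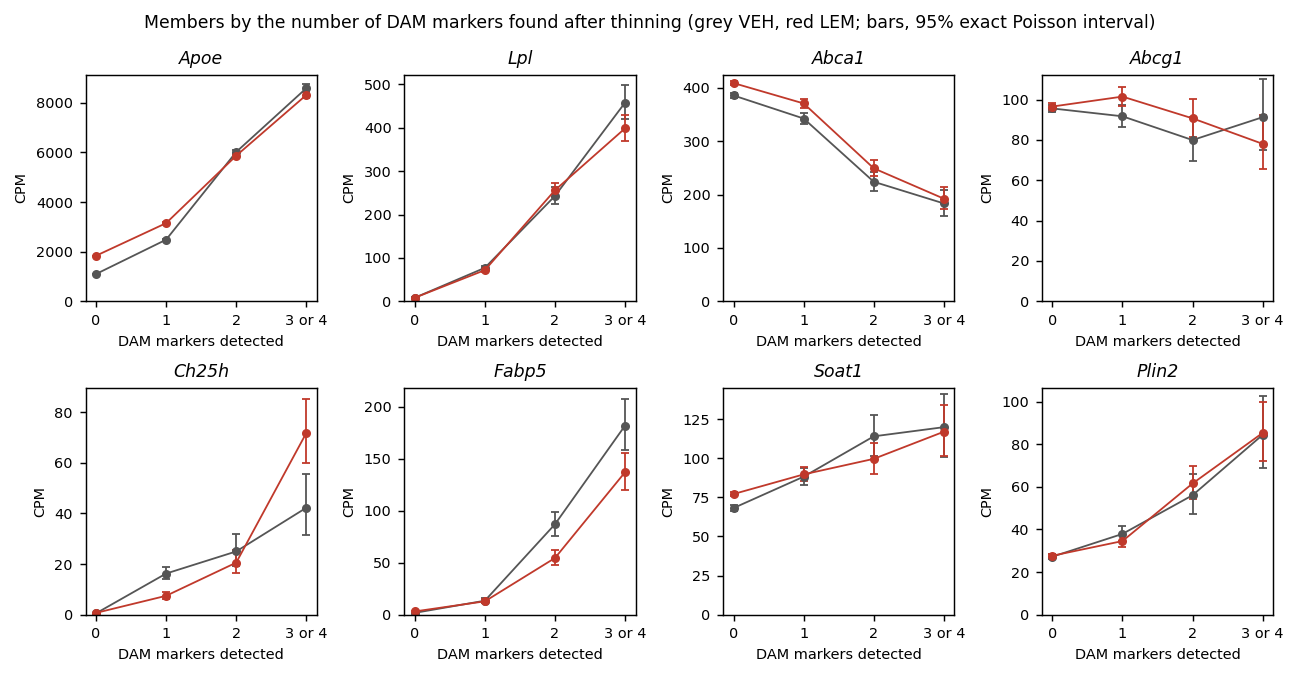
CPM (vertical axes, from 0) of 8 genes in cells with 0, 1, 2 and 3 or 4 of the 5 DAM markers detected after thinning to 2000 counts, in VEH (grey) and LEM (red), with 95% exact Poisson intervals. *Apoe*, *Lpl*, *Fabp5*, *Soat1* and *Plin2* are higher and *Abca1* lower with 3 or 4 markers than with 0 in both libraries.

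Within homeostatic-gated cells, *Apoe* was detected in part of the cells. After thinning to 2000 counts, 74.7% of female and 53.1% of male cells in VEH held no *Apoe* count, against 61.3% of female and 25.6% of male cells in LEM. The median was 0 counts in the first 3 of these groups and 3 counts in LEM male cells. Cells with at least 12 counts made up 1.09% and 4.02% of female and male cells in VEH and 1.19% and 7.02% in LEM. In female cells the libraries differed at lower counts too, with at least 3 counts in 9.40% of VEH and 16.7% of LEM cells and at least 6 in 3.40% and 5.90%, while the 99th percentile was 12 counts in both. Beyond it, at least 20 counts were found in 0.229% of VEH and 0.532% of LEM female cells. No gated cell type lacks *Apoe*, so a share due to free RNA could not be measured.

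**Figure D5:**
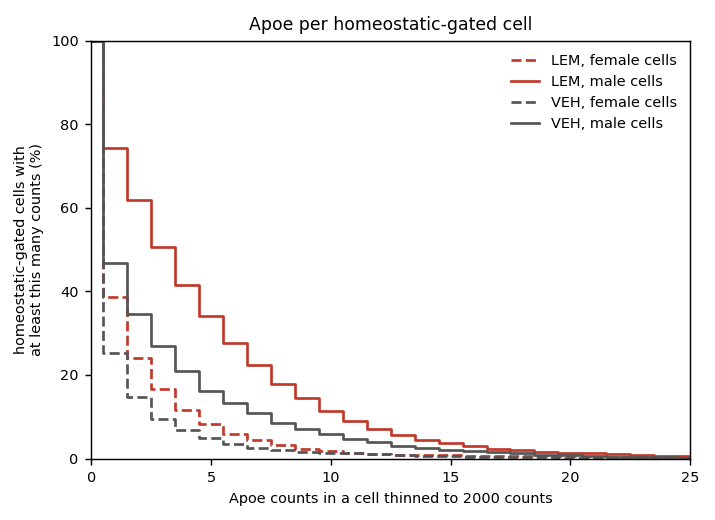
Share of homeostatic-gated cells (vertical axis, percent) with at least a given number of *Apoe* counts (horizontal axis) after thinning to 2000 counts, for female (dashed) and male (solid) cells of VEH (grey) and LEM (red). LEM male cells lie highest, and 25.6% of them held no count against 74.7% of VEH female cells.

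Homeostatic-gated cells were then grouped by their thinned *Apoe* count, with *Apoe* left out of the totals. Between cells with 0 and cells with at least 12 *Apoe* counts, *Abca1* went from 382 to 376 CPM in VEH and from 406 to 417 CPM in LEM when the sexes were pooled. By sex its log2 ratio was -0.32 (-0.65 to -0.013) in VEH female, 0.058 (-0.064 to 0.18) in VEH male, -0.20 (-0.48 to 0.058) in LEM female and -0.13 (-0.22 to -0.039) in LEM male cells. Of the cells with at least 12 *Apoe* counts, 38 were female and 230 male in VEH, and 58 and 481 in LEM, and the pooled values mix the sexes in those proportions. *Abcg1* (log2 ratio 0.16 in VEH and -0.01 in LEM) and *Soat1* (0.00 and -0.08) had intervals that held 0, pooled and in each sex. *Lpl* went from 2.38 to 8.19 CPM in VEH and from 2.56 to 5.60 CPM in LEM, log2 ratios of 1.78 (0.97 to 2.52) and 1.13 (0.39 to 1.81). By sex, *Lpl* came to 2.40 (female) and 1.94 (male) in VEH, and to 3.20 (1.78 to 4.38) and 2.12 (0.90 to 3.39) in LEM, above the pooled value in each case, on 5 to 15 counts in the high bin. *Plin2* differed by 0.54 (0.19 to 0.87) in VEH and by 0.21 (-0.07 to 0.49) in LEM when pooled, and by sex 1 of the 4 intervals excluded 0, that of LEM female cells (0.85, 0.056 to 1.54). *Fabp5* differed by 1.47 (-0.063 to 2.72) in VEH, on 6 counts in the high bin, and by 1.10 (0.13 to 1.97) in LEM, on 14. In male cells it differed by 1.68 (-0.10 to 3.16) in VEH and 0.35 (-1.04 to 1.59) in LEM. Female cells of the high bin held 0 counts of it in both libraries. Genes outside the 9 also differed between these bins, and 6 are given here after their values were seen. *Lyz2*, which encodes lysozyme, was higher in the high bin, with a log2 ratio of 1.96 (1.87 to 2.04) in VEH against 1.48 (1.41 to 1.55) in LEM, and so was *Npc2*, a lysosomal cholesterol carrier, at 0.39 (0.32 to 0.46) and 0.42 (0.36 to 0.47). *Cx3cr1*, the fractalkine receptor, was lower there, at -0.11 (-0.14 to -0.073) and -0.23 (-0.26 to -0.20). The other homeostatic markers read over the bins, *P2ry12* (0.03 and -0.0012) and *Tmem119* (0.00017 and -0.11), had no common direction when pooled, and *P2ry12* was lower in the high bin in female cells (-0.18 and -0.33) and higher in male cells (0.041 and 0.044). *Tmem119* was lower there in each sex, at -0.055 and -0.30 in female and -0.036 and -0.022 in male cells. Of these intervals only that of LEM female cells (-0.41 to -0.19) excluded 0. *Lyz2*, *Npc2* and *Cx3cr1* kept their pooled directions in each sex of each library, with intervals that excluded 0. *Apoc1*, another apolipoprotein gene, had 2 counts in the bin with 0 *Apoe* counts and 7 in the high bin of VEH, and 0 and 31 in LEM. Whether cells or RNA of another type had a part in these values was not tested. Cells of 1 library share their source, so these are descriptions of each pool.

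Other lipid genes were read from 7 lists of 62 genes, of which 44 passed the 1% detection in VEH or in LEM and 43 in both. Of those 43, 3 were higher in LEM by at least 0.32 on the log2 scale (3.15% of the 11629 genes found in 1% of the cells of both libraries) and 0 lower by as much (2.52%). Those 3 were *Pltp*, which transfers phospholipid between lipoproteins (log2 ratio 1.13), *Dgat2*, which makes triglyceride (0.63), and *Soat2* (0.45). In female and male cells *Pltp* came to 0.54 and 1.20, *Dgat2* to 0.11 and 0.81, and *Soat2* to 0.046 and 0.73. *Dgat2* and *Soat2* thus lay under 0.32 in female cells. *Msr1*, a scavenger receptor, came to 0.62 but passed the detection only through LEM (0.860% of VEH and 1.41% of LEM cells), so it is left out of the count. Without choroid plexus- and macrophage-gated cells *Pltp* came to -0.11 (-0.38 to 0.16), *Msr1* to 0.61, *Dgat2* to 0.63 and *Soat2* to 0.44. The border-associated macrophage-gated cells held *Pltp* at 336 CPM in LEM, but only 0.328% of all counts of that library. Its level in choroid plexus-gated cells is not given here, so the change in the *Pltp* ratio is not credited to either kind.

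Between the states, 8 of 44 were at least 2-fold higher in DAM-gated than in homeostatic-gated cells in both libraries (3.17% of all genes tested) and 0 of 44 lower (4.08%), with medians of -0.14 in VEH and -0.18 in LEM. Among uptake receptors and their partners, *Scarb1* came to 1.29 and 1.32 on the log2 scale (VEH first) and *Lrpap1* to 1.29 and 1.14. *Lrp1*, a receptor of apolipoprotein E, differed by -0.26 and -0.28, close to the median of all genes. In the sterol transport list, *Nceh1*, which hydrolyses cholesteryl ester, had 2.80 and 2.47, and *Npc2*, which carries cholesterol out of the lysosome, 1.31 and 1.30 (655 against 1629 CPM in VEH, 684 against 1686 CPM in LEM, DAM-gated second).

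*Fabp3*, a fatty acid binding protein, had 6.65 and 7.09, and *Dgat2* 1.98 and 1.49. Of the 10 genes of the LXR list, *Scd2* passed 2-fold, at 1.57 and 1.39, and *Srebf1* had 0.93 and 0.65. *Mylip* (-0.91 and -0.97), the LXR partner *Rxra* (-0.87 and -0.84), *Arl4c* (-0.82 and -0.91) and *Lpcat3* (-0.79 and -0.62) lay lower in DAM-gated cells, as *Abca1* did. Genes known as LXR targets thus went both ways between these states.

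Genes most like each of the 9 were sought over 29 units of state, library and sex with at least 50 cells, by Pearson's r of log2(CPM + 10). Units of 1 library share its depth and handling, so r is a description. Cells that passed no gate, which were shallow, are among these units. *Pdzk1ip1* (r = 0.84), *mt-Cytb* (0.81) and *Vat1* (0.80) were nearest to *Apoe*, and *Fgr* (0.93), *Rai14* (0.91) and *Cd5* (0.90) to *Lpl*. For *Abca1* they were *Dennd4a*, *8030442B05Rik* and *Fam117b* (each 0.96), and for *Abcg1* *Naip2* (0.94), *Shb* and *Gse1* (each 0.93). *Capg* (0.87) and *Slc16a3* (0.85) were among the nearest to *Ch25h*, and *Egln3* (0.96), *Bhlhe40* (0.94) and *Lgi2* (0.93) were nearest to *Fabp5*. For *Plin2* they were *Cd52*, *Mif* (0.87 and 0.86) and *Dhcr7* (0.86), and for *Soat1* *Lox*, *Gadd45a* and *Olfr111* (0.82, 0.81 and 0.79). *Nr1h3*, at 1.32 CPM in VEH and 1.38 CPM in LEM, lay far below the added 10 CPM, which by itself keeps its spread small (SD 0.16). For it *Triqk* (0.78), *Pls3* (0.76) and *Xlr3b* (0.72) stood first, on few counts.

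Among the 9 genes themselves, *Abca1* and *Abcg1* were the closest pair (r = 0.91), followed by *Lpl* with *Ch25h* (0.83) and *Lpl* with *Fabp5* (0.81). The units that passed no gate had the highest *Abca1* and *Abcg1* of all units, and r without them was not computed. *Apoe* was nearer to *Fabp5* (0.74) and *Soat1* (0.67) than to its transporters *Abca1* (-0.25) and *Abcg1* (-0.18).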

How the data were processed

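Per the labels and methods, the authors made 10x Genomics 5′ libraries, used Cell Ranger 8.0.0 with an mm10 reference for alignment and UMI counting, named SoupX 1.6.2 for free RNA, and kept cells with at least 500 genes, at most 20000 counts and at most 2.5% mitochondrial counts. What was deposited is a table of whole-number UMI counts, 1 value for each gene in each cell. Whether the SoupX correction is in them could not be told. Barcodes shared by the libraries could not be counted, because cell names are running numbers.

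Counts were summed per library, state or sex and divided by the summed totals (CPM). Ratios carry exact conditional binomial intervals, levels exact Poisson and shares Clopper-Pearson intervals, at 95%. No test or p-value is given, with 1 library per treatment. No ratio is given where both groups hold at most 3 counts. Each cell went to the first gate passed, in the order choroid plexus (at least 50 *Ttr* counts and 2 other markers), border-associated macrophage, cycling, DAM, interferon-responsive, *Ccl3*/*Ccl4*-high, intermediate and homeostatic. A further planned DAM marker was not analysed here, so 5 were used. Groups of 3 and of more markers were joined. Scrublet (scanpy 1.11.5, expected rate 10%) called 0 VEH cells but 3113 LEM cells (12.8%) by its own threshold, so the 1807 and 2402 highest-scoring cells were left out instead, as an alternative. Thinning to 2000 counts left out 1305 VEH and 1215 LEM cells. Positions are from GENCODE M21 and RefSeq (GRCm38). Named were the 9 genes, up to 4 genes of each lipid list with the largest ratio, the list genes past a fold, and the 3 genes most like each, of which some items are not reported here; *Lrp1* and *Lpcat3* were picked after their values were seen. The genes, lists and gates were chosen with earlier results of these data known. The ratio step was tested on simulated data. Figures were drawn with matplotlib 3.10.9, and pandas 2.3.3, scipy 1.17.1 and numpy 2.4.6 ran under Python 3.11.15.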

Additional observations from a re-analysis of the deposited data

Results flagged for a closer look

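Some genes differed between the libraries in opposite directions in female and male cells, each with a counting interval that excluded 0. The log2 ratio of LEM over VEH was -0.059 in female and 0.19 in male cells for *Abca1*, -0.075 and 0.10 for *Abcg1*, -0.80 and 0.77 for *Fabp5*, and 0.13 and -0.09 for *Plin2*. By state, it was -0.22 and 0.26 for *Apoe* in DAM-gated cells (interval of the female value -0.26 to -0.17), -0.068 and 0.21 for *Abca1* in homeostatic-gated cells, and -1.94 and 0.63 for *Fabp5* in DAM-gated cells. Counts of *Fabp5* gather in few cells. Without the 10 cells with most counts of the gene in each sex and library, the female and male values were -0.24 and 0.88 for *Fabp5* in all cells, -1.21 and 0.75 for *Fabp5* in DAM-gated cells, and -0.062 and 0.33 for *Apoe* in DAM-gated cells. A fixed 10 cells is a larger share of VEH, which has fewer cells of each sex, and can raise these values by itself. These differences between the sexes were not tested, since each sex of a library is 1 pool of mice. By sign alone, 6 of the 9 genes and 45.9% of all genes tested went opposite ways in the sexes.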

How the results depend on the processing

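*Apoe* stayed higher in LEM under every alternative run, with log2 ratios of 0.58 (median of ratios), 0.58 (totals without the 20 most abundant genes), 0.67 (mean per 10000 over cells), 0.67 (thinned cells), 0.49 (female), 0.70 (male), 0.64 (sexes weighted equally), 0.61 (without high Scrublet scores), 0.57 (without choroid plexus- and macrophage-gated cells), 0.73 (homeostatic-gated and intermediate cells) and, added after the data were seen, 0.63 (without the 10 cells with most counts in each sex and library). The number of the 9 genes at least 0.32 apart on the log2 scale, 1 in all cells, was 3 in female cells, 3 in male cells, 2 with the sexes weighted equally, 3 in homeostatic-gated and intermediate cells and 2 without the 10 highest cells, where 12.3%, 9.97%, 6.98%, 7.67% and 8.63% of all genes tested lay that far apart. *Abca1* reversed to -0.059 in female cells; the cause was not tested. Of the 5 genes at least 2-fold apart between DAM-gated and homeostatic-gated cells, *Plin2* did not pass in both libraries with at least 2 markers (1.03 and 0.96). Nor did it without the 10 cells with most counts of the gene (0.98 and 1.13, chosen after seeing the data). With gates on thinned cells *Abca1* passed too, lower by over 2-fold (-1.05 and -1.04). The share of all genes tested that far apart is not given for the other gates. The share of all genes that far apart between LEM and VEH, 6.85%, was 2.6% at a detection minimum of 10% and 25.1% with none. No paired analysis was possible because each treatment has 1 library and the labels give no shared replicate numbers. Leaving out a fixed 10 cells takes a larger share of VEH, which has fewer cells, and can raise a LEM over VEH ratio by itself. Depth limits *Nr1h3* and *Ch25h* most.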
